A study of Mus musculus with 2 samples.

Results

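Timd4-positive Kupffer cells are the resident macrophages of the liver sinusoid that carry TIMD4, a receptor for phosphatidylserine on dying cells. Here they were chosen by measured values: barcodes with at least 2 raw Timd4 counts that passed 4 sums of marker counts per 10000 counts of the barcode. The sum of Clec4f, Vsig4, Cd5l and C6 had to reach 30. The sum of the scar-macrophage genes Gpnmb, Mmp12 and Trem2 had to stay below 5, that of the endothelial genes Ptprb, Kdr, Stab2 and Gpr182 below 15, and that of the mesenchymal genes Dcn, Colec11 and Ecm1 below 10. The rule took 1899 of 20000 barcodes, 1277 in the library labelled knockout and 622 in the library labelled control. The rule reads measured values, so the levels of these 15 genes describe the choice and support no finding.

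Suspensions of liver cells were sequenced cell by cell after partial ligation of the inferior vena cava (pIVCL), a model of congested liver in which outflow of blood is impeded. The library labelled knockout has the genotype Cdh5-CreERT2; Ctgffl/fl, in which a Cre recombinase that needs tamoxifen is driven by the endothelial Cdh5 promoter and Ctgf (now Ccn2, a matricellular protein) is floxed. The library labelled control has Ctgffl/fl alone, and both mice had pIVCL. The labels name a male knockout mouse and its littermate, 1 library each, and give no age and no tamoxifen schedule. A low-speed spin had removed hepatocytes and a density gradient dead cells and erythrocytes, so shares of cells describe the suspension.

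Kupffer cells settle in the liver before birth and renew themselves there. They clear bacteria, aged red cells and dead cells from portal blood, recycle haem iron, and present antigen. Resident cells acquire TIMD4 over time, whereas monocytes that enter an injured liver first become Kupffer cells without it, so Timd4 is widely used to tell long-resident from recently arrived Kupffer cells.

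The sample titles contradicted the genotype labels, since the title of the Cre library calls it a control. Groups follow the genotype labels, and a log2 ratio above 0 means higher in the library labelled knockout. In barcodes of an endothelial gate, 3814 and 2335 cells, Ccn2 was at 4.39 CPM (each gene's summed counts scaled to 1000000 in all) in the library labelled knockout and 871 CPM in the library labelled control, which goes with the genotype labels. The libraries held 10000 barcodes each, with 129802501 counts in the library labelled knockout and 106208933 in the library labelled control. They shared 2 barcode numbers, none of them among the Timd4-positive cells. With 1 library per genotype there is no test between genotypes, and animal, surgery, library and genotype cannot be told apart. The 95% intervals cover counting error only.

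Nearly all Kupffer cells of the library labelled knockout were Timd4-positive, and about 3 in 4 of the library labelled control were. Of barcodes that passed the other gates, 1277 of 1350 had at least 2 Timd4 counts in the library labelled knockout, 94.6% (93.2 to 95.7, exact binomial). In the library labelled control this held for 622 of 822, 75.7% (72.6 to 78.6). Barcodes without any Timd4 count numbered 44 in the library labelled knockout, 3.26%, against 137 in the library labelled control, 16.7%. Of all kept barcodes, Timd4-positive cells made up 14.5% (13.8 to 15.3) in the library labelled knockout and 7.86% (7.27 to 8.47) in the library labelled control.

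Depth differed between the libraries and bears on these shares. Timd4-positive cells had a median of 17529 counts in the library labelled knockout and 13067 in the library labelled control, and a median of 13 and 6 Timd4 counts. Barcodes were also thinned to 5000 counts, and shallower ones were left out. Kupffer-gate barcodes then numbered 1289 in the library labelled knockout and 724 in the library labelled control. Of these, 82.3% and 58.4% had at least 2 Timd4 counts, so over this deeper subset the gap of 18.9 percentage points became 23.9. Cells just inside the cut, with 2 Timd4 counts, numbered 57 in the library labelled knockout and 69 in the library labelled control. Those just outside it, with 1 count, numbered 29 and 63. In a B-cell gate, taken as the background, at least 2 counts were found in 1.21% of 248 barcodes of the library labelled knockout and 0.44% of 227 of the library labelled control, at median depths of 4156 and 4696 counts.

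**Figure D1:**
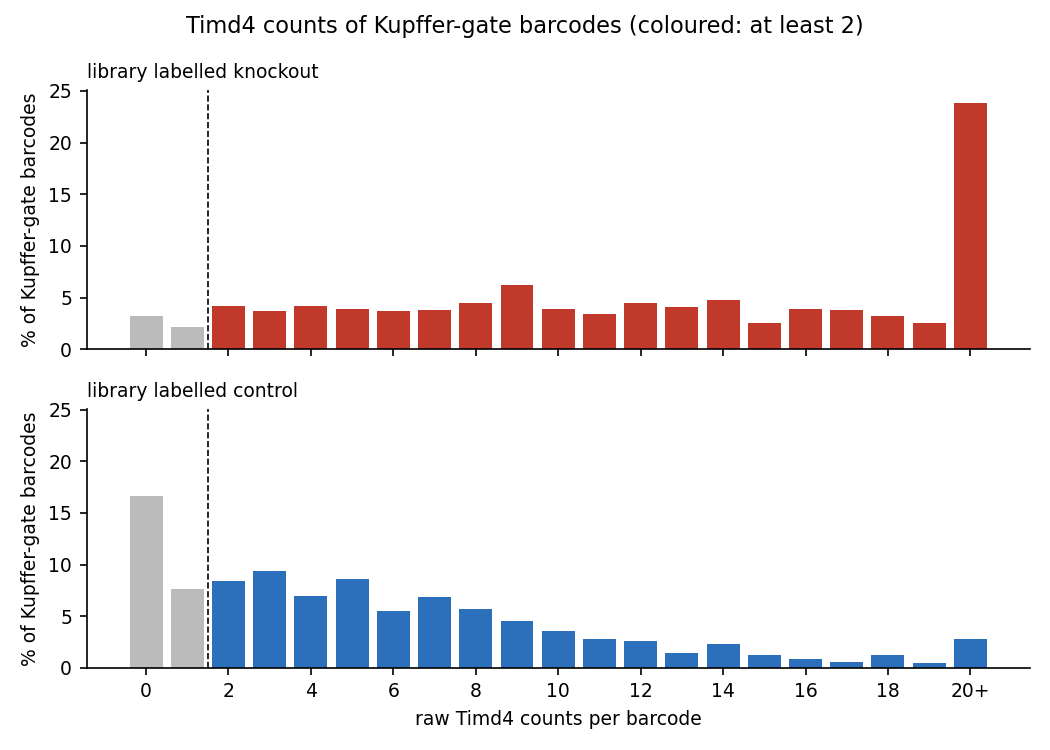
Raw Timd4 counts (horizontal axis) of barcodes that passed the Kupffer, scar, endothelial and mesenchymal gates, as a percent of such barcodes in each library, with 20 or more counts pooled in the last bar. Coloured bars are Timd4-positive cells; the grey bars at 0 and 1 hold 3.26% and 2.15% in the library labelled knockout and 16.7% and 7.66% in the library labelled control.

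The scar gate took unlike numbers from the libraries. Among barcodes that passed the Kupffer, endothelial and mesenchymal gates, a scar sum of 5 or more was found in 21 of 1371 in the library labelled knockout, 1.53% (0.95 to 2.33), and in 378 of 1200 in the library labelled control, 31.5% (28.9 to 34.2). Those barcodes were set aside by the rule although many carried Timd4. At least 2 Timd4 counts were present in 19 of the 21 in the library labelled knockout and in 198 of the 378 in the library labelled control, 52.4% (47.2 to 57.5). Of barcodes past the Kupffer and scar gates, the endothelial gate removed 1015 in the library labelled knockout and 526 in the library labelled control. Of those that failed only that gate, 93.1% and 77.1% had at least 2 Timd4 counts, close to the shares inside it.

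The cells carried the markers of their name. Cd163, the receptor for haemoglobin-haptoglobin complexes, which the rule does not read, was at 1778 CPM in the library labelled knockout and 1218 CPM in the library labelled control. Folr2, a folate receptor of resident macrophages, was at 1278 CPM (1263 to 1293) and 753 CPM (734 to 771) in Timd4-positive cells, against 498 and 199 CPM over all kept barcodes of the same libraries. After thinning, a Cd163 count was found in 96.4% of Timd4-positive cells of the library labelled knockout and 90.5% of the library labelled control, and in 8.06% and 7.93% of B-gate barcodes. Among genes of the rule, Timd4 was at 816 and 556 CPM, Clec4f at 4806 and 4036 CPM and Vsig4 at 3087 and 2938 CPM.

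RNA of other cell types was present, at levels that differed by type. Summed over marker lists, endothelial genes reached 924 CPM in Timd4-positive cells of the library labelled knockout and 761 CPM in the library labelled control, 6.95% and 8.56% of their level over all kept barcodes. Hepatocyte genes reached 160 and 685 CPM, or 6.14% and 26.5%. Stellate genes reached 111 and 202 CPM, neutrophil genes 278 and 42.9 CPM and T and NK genes 15.5 and 20.3 CPM. Monocyte genes reached 328 and 337 CPM, 41.9% and 27.8% of their level over all kept barcodes, and B-cell genes 569 and 164 CPM, or 35.6% and 8.55%. Erythroid and platelet genes reached 587 and 835 CPM, or 59.1% and 70.1%, and dendritic genes 69.3 and 62.9 CPM, or 38.5% and 39.0%. Of these markers, Ly6g in the library labelled control was the 1 at 0. Much of the B-cell, neutrophil and erythroid signal sat in few barcodes: the 1% of Timd4-positive cells with most counts of the gene held 94.9% of Ighm, 83.7% of S100a8 and 93.3% of Hba-a1 counts in the library labelled knockout, and 37.9%, 41.2% and 82.2% in the library labelled control. Whether such barcodes held more than 1 cell was not tested.

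Ccn2 itself was low in Timd4-positive cells, at 2.75 CPM in the library labelled knockout and 24.2 CPM in the library labelled control, from 63 and 205 counts. In the B-cell gate it was at 1.56 and 16.9 CPM, so the level in Kupffer cells was near that background in each library. Cdh5, whose promoter drives the Cre, is also a Kupffer gene. It was at 636 CPM (625 to 646) and 471 CPM (457 to 486) in Timd4-positive cells, against 18.7 and 16.9 CPM in the B-cell gate, and a count was found in 92.3% and 87.3% of thinned Timd4-positive cells. Whether the Cre acted in these cells was not tested.

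Genes were compared between libraries by their summed counts in Timd4-positive cells, and a gene was called higher or lower when its CPM differed by at least 1.5-fold. Of 8466 genes with a mean of at least 10 CPM and 20 counts in all, 296 were higher, a background of 3.5%, and 445 were lower, a background of 5.26%. The median log2 ratio over all of them was 0.0058. Scaling by TMM (trimmed mean of M-values) or by median-of-ratios factors added 0.084 to every log2 ratio and turned the balance, to 423 higher and 356 lower. The counts for the gene lists that follow are read against these backgrounds. Among markers of other cell types, 8 of 8 measured hepatocyte genes were lower, with Alb at 73.8 CPM in the library labelled knockout and 397 CPM in the library labelled control. All 4 measured neutrophil genes and 3 of 4 B-cell genes were higher. The direction of the B-cell genes turned without the 1% of cells with most counts of the gene, to -1.05 for Ighm, -1.21 for Igkc and -0.85 for Jchain on the log2 scale. Of endothelial genes, 5 of 11 endothelial genes were higher and 1 lower.

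**Figure D2:**
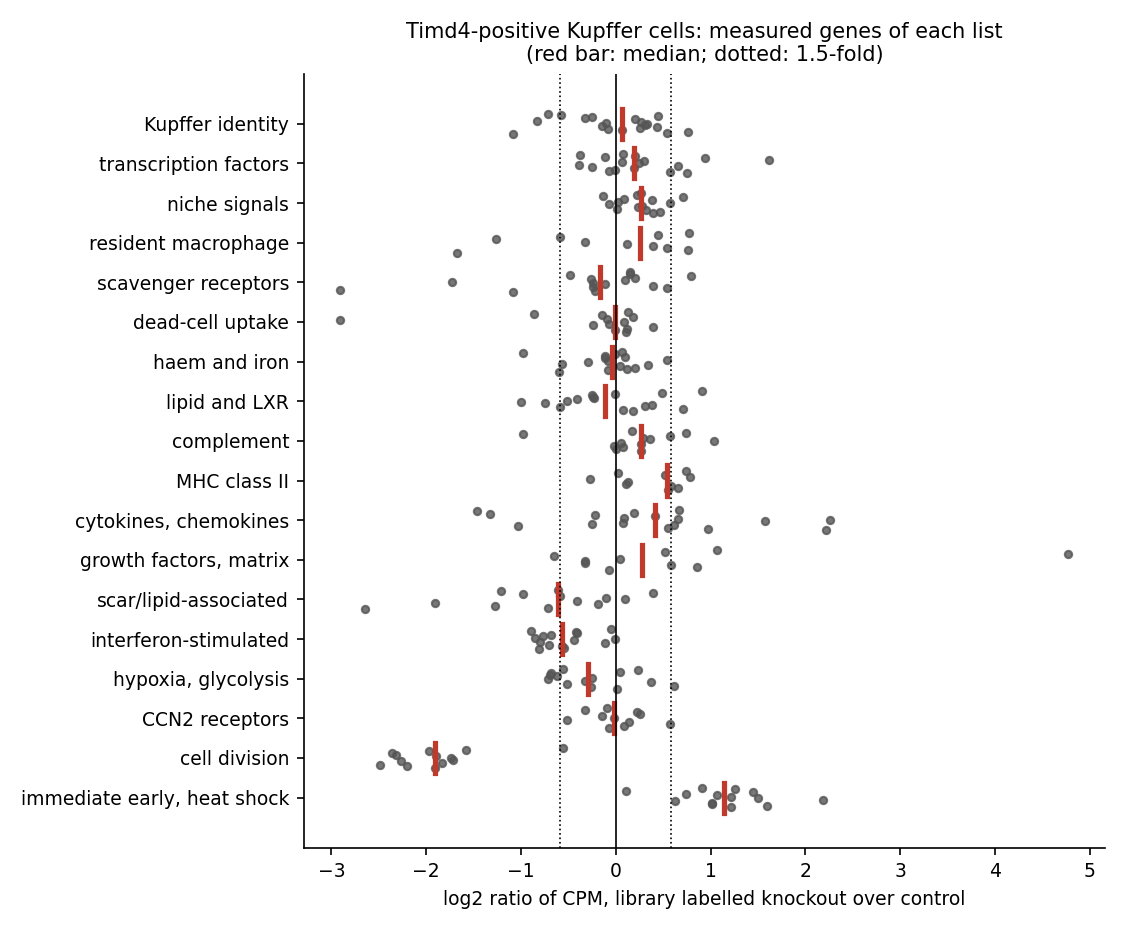
Log2 ratio of CPM in Timd4-positive cells, library labelled knockout over library labelled control (horizontal axis), for the measured genes of each list (points) with the list's median (red bar) and the 1.5-fold limits (dotted). Cell division genes lie to the left with a median of -1.91 and immediate early and heat shock genes to the right with a median of 1.14.

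Most identity genes outside the rule stayed within 1.5-fold between libraries, but calls among them were no rarer than over all genes. Of 19 measured, 15 differed by less than 1.5-fold, 1 was higher and 3 were lower, beside backgrounds of 3.5% and 5.26%. The median log2 ratio was 0.067 (all genes 0.0058). Folr2 was the 1 higher member, with a log2 ratio of 0.76 (0.72 to 0.80). Marco, a scavenger receptor for bacteria and particles, was lower, at 357 CPM (349 to 365) in the library labelled knockout and 758 CPM (740 to 777) in the library labelled control. Vcam1, an adhesion molecule for lymphocytes, was lower at 987 CPM in the library labelled knockout and 1752 CPM in the library labelled control, a log2 ratio of -0.83 (-0.86 to -0.80). The third lower member was Ear2, a ribonuclease.

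Among transcription factors of Kupffer cells and macrophages, 4 of 17 measured were higher and 0 lower, with a median of 0.20. Nr1h3, the oxysterol receptor LXRα that maintains Kupffer identity, was at 330 CPM (323 to 338) in the library labelled knockout and 196 CPM (187 to 206) in the library labelled control. Klf4 was at 165 CPM in the library labelled knockout and 53.5 CPM in the library labelled control, and its log2 ratio was 1.62 (1.48 to 1.76). Over all kept barcodes Klf4 was more abundant, at 176 and 106 CPM, and so also higher in the library labelled knockout. Klf2, a related factor that restrains inflammatory activation, was at 707 and 368 CPM. Zeb2 was the other higher member. Of 15 receptors and readouts of niche signals (BMP, Notch, TGF-beta and CSF1), 1 was higher and 0 lower: Hes1, a Notch target, was at 168 CPM in the library labelled knockout and 102 CPM in the library labelled control. Hes1 was more abundant over all kept barcodes, at 320 and 151 CPM, and so also higher there in the library labelled knockout. The list's median was 0.26. Of 11 measured receptors reported for CCN2, 0 passed 1.5-fold in either direction, with a median of -0.023, which turned to 0.061 with TMM. Itgb1 was at 623 and 633 CPM, and Lrp1, which also takes up many ligands, at 555 and 612 CPM.

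Uptake receptors held 1 of the lowest ratios of all lists. Cd36, which binds oxidised lipoproteins, long-chain fatty acids and apoptotic cells, was at 99.4 CPM (95.4 to 104) in the library labelled knockout and 745 CPM (727 to 764) in the library labelled control. Its log2 ratio was -2.91 (-2.98 to -2.84), and it ran from -3.14 to -2.82 over the alternatives. A Cd36 count was found in 24.8% of thinned Timd4-positive cells of the library labelled knockout and in 94.8% of those of the library labelled control. In the B-cell gate the shares were 9.68% and 22.9%, at lower depth, and over all kept barcodes Cd36 was at 322 and 751 CPM. The counts were spread over many cells: the 1% with most counts held 14.6% of Cd36 counts in the library labelled knockout and 5.04% in the library labelled control.

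Other uptake genes split. Of 13 dead-cell uptake genes measured, Cd36 and Cd300lf, a lipid-binding receptor at 72.8 and 133 CPM, were lower and 0 were higher, with a median of -0.0042. Of 16 scavenger and pattern receptors, 1 was higher and 3 were lower, and the median was -0.17. Colec12, a collectin of scavenger type, was at 43.3 CPM (40.6 to 46.0) in the library labelled knockout and 143 CPM (136 to 152) in the library labelled control, with a log2 ratio of -1.73 (-1.85 to -1.61). Cd14, the co-receptor for lipopolysaccharide, was the higher member. Among genes shared by long-lived resident macrophages of several tissues, 2 of 10 were higher and 3 lower, with a median of 0.25. Selenop, a selenium carrier, was at 4031 CPM in the library labelled knockout and 2353 CPM in the library labelled control, and was more abundant still over all kept barcodes, at 10050.3 and 4698 CPM. Lyve1, a hyaluronan receptor that sinusoidal endothelium also expresses, was at 24.9 and 79.4 CPM, and Pf4, a chemokine also carried by platelets, at 35.0 and 84.0 CPM. Over all kept barcodes Lyve1 was far more abundant, at 516 CPM in the library labelled knockout and 1345 CPM in the library labelled control, and the part of free endothelial RNA in its difference was not tested.

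Most haem, iron and lipid genes stayed within 1.5-fold, but genes called lower were no rarer among them than the 5.26% over all genes. Of 16 haem and iron genes, 0 were higher and 2 lower, with a median of -0.043, which turned to 0.041 with TMM. Hmox1, which opens the haem ring, was at 1117 CPM (1104 to 1131) in the library labelled knockout and 1691 CPM (1663 to 1719) in the library labelled control, a log2 ratio of -0.60 (-0.63 to -0.57) that lies just past the 1.5-fold limit and ran from -0.74 to -0.51 over the alternatives. Cp, the ferroxidase ceruloplasmin, was at 24.8 and 48.9 CPM. It was more abundant over all kept barcodes, at 130 CPM in the library labelled knockout and 114 CPM in the library labelled control. Of 16 genes of lipid handling and LXR targets, 2 were higher and 2 lower, with a median of -0.12. The fatty acid desaturases Scd1, at 116 and 194 CPM, and Scd2, at 54.1 and 108 CPM, were lower, and Abca9, a transporter of the ABC family, was higher at 239 CPM in the library labelled knockout and 127 CPM in the library labelled control.

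Complement and antigen presentation had more genes above than below. Of 13 complement genes, 2 were higher and 1 lower, with a median of 0.26. Cd55, a membrane brake on complement, was at 236 CPM in the library labelled knockout and 141 CPM in the library labelled control. Itgax was lower, at 7.76 and 15.2 CPM. Of 10 genes of antigen presentation on MHC class II, 4 were higher and 0 lower, with a median of 0.54. Cd74, the invariant chain, was at 2425 CPM (2405 to 2446) in the library labelled knockout and 1404 CPM (1379 to 1430) in the library labelled control. H2-Ab1, a class II beta chain, was at 1653 and 1046 CPM, and Cd40, a co-stimulatory receptor, had a log2 ratio of 0.74 (0.51 to 0.99). B cells carry these genes too, and a Cd74 count was found in 99.6% and 100% of B-gate barcodes. B-cell markers were higher in the library labelled knockout through few cells, and the part of such barcodes in the class II difference was not tested. Leaving out the 5% of barcodes with the highest doublet scores gave a class II median of 0.64. The B-cell median was 2.94 over 3 genes under that setting and 2.23 over 4 genes without it. The setting thus kept a B-cell difference and cannot decide this part. With barcodes of 4000 to 20000 counts the B-cell median was -0.65 over 3 genes and the class II median 0.68 over 10. Without the 1% of cells with most Cd74 counts, the log2 ratio of Cd74 was 0.84.

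Cytokines and chemokines held several of the highest single genes. Of 17 measured, 7 were higher and 3 lower, with a median of 0.42. Cxcl13, a chemokine that draws B cells, was at 903 CPM (891 to 915) in the library labelled knockout and 189 CPM (179 to 198) in the library labelled control, a log2 ratio of 2.26 (2.19 to 2.33). Per cell it was spread widely, from 0 at the 10th percentile through a median of 3.16 to 24.9 counts per 10000 at the 90th in the library labelled knockout, against 0, 0 and 5.27 in the library labelled control. Il1b, interleukin 1 beta, was at 144 CPM (139 to 149) in the library labelled knockout and 31.1 CPM (27.4 to 35.1) in the library labelled control. A count of it was found in 35.0% and 10.2% of thinned cells, against 2.42% and 5.29% of B-gate barcodes. Cxcl10, a chemokine for activated T cells, was at 108 and 36.3 CPM, with 31.9% and 41.7% of its counts in 1% of the cells. Also higher were Il1a, Il10, Cxcl16 and Ccl24, while Il18, Ccl5 and Ccl9 were lower.

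Of 10 measured growth factors and matrix enzymes, 3 were higher and 1 lower, with a median of 0.28 that turned to -0.072 with a mean of at least 50 CPM required. Mmp9, a gelatinase abundant in neutrophils, was at 55.0 CPM (52.0 to 58.1) in the library labelled knockout and 2.01 CPM (1.17 to 3.22) in the library labelled control, from 1261 and 17 counts. The neutrophil markers S100a8, at 92.7 and 11.5 CPM, and Ngp, at 59.9 and 2.84 CPM, went the same way. The counts lay differently over cells: the 1% of cells with most counts held 16.8% of Mmp9 counts and 83.7% of S100a8 counts in the library labelled knockout, where 30.4% of Timd4-positive cells had an Mmp9 count. After thinning the share was 15.5%, against 1.07% in the library labelled control. B-gate shares were 1.21% and 1.76%. The part of neutrophil RNA in the Mmp9 difference was not tested. Timp2, an inhibitor of matrix metalloproteinases, was at 278 and 132 CPM, and Pdgfa, a mitogen of mesenchymal cells, at 22.8 and 12.5 CPM.

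**Figure D3:**
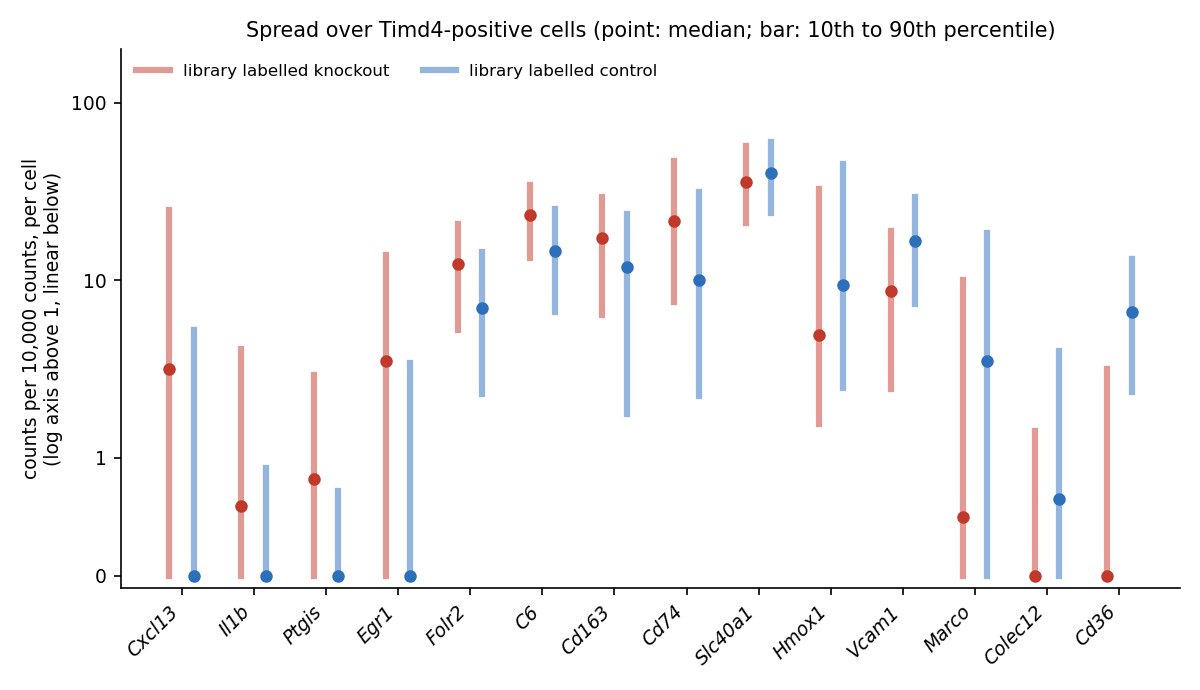
Counts per 10000 (vertical axis, logarithmic above 1) of 14 genes over Timd4-positive cells, 1277 in the library labelled knockout and 622 in the library labelled control, as median (point) and 10th to 90th percentile (bar). The bars of Cd36 overlap little, with medians of 0 and 6.65, while those of C6, Cd163 and Slc40a1 overlap over most of their length.

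Scar- and lipid-associated macrophage genes outside the rule were lower as a group. Of 13 measured, 0 were higher and 7 lower, and the median was -0.61. Cd9, a tetraspanin, was at 10.2 CPM (8.90 to 11.6) in the library labelled knockout and 63.8 CPM (58.5 to 69.4) in the library labelled control, Cd63 at 6.15 and 23.0 CPM, and Fabp4, a fatty acid binding protein, at 32.3 and 78.2 CPM. The rule had already set aside barcodes with high Gpnmb, Mmp12 and Trem2, and Trem2 remained at 39.7 CPM in the library labelled knockout and 141 CPM in the library labelled control. The scar gate thus bears on this whole list, and its counts are a description. Fabp4 is also an endothelial gene, at 403 and 787 CPM over all kept barcodes.

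Interferon-stimulated genes were lower in 7 of 15 and higher in 0, with a median of -0.57. Ifi44 was at 27.0 CPM (24.9 to 29.2) in the library labelled knockout and 50.0 CPM (45.3 to 55.0) in the library labelled control, Gbp2, a guanylate-binding protein of host defence, at 69.5 and 125 CPM, and Ifit1, a sensor of viral RNA, at 25.9 and 45.5 CPM. Over all kept barcodes Ifi44 was at 67.9 and 115 CPM, Gbp2 at 64.8 and 118 CPM and Ifit1 at 32.0 and 62.7 CPM. These 3 genes thus stood lower over the whole suspension of the library labelled knockout too. Hypoxia and glycolysis genes were lower in 4 of 14 and higher in 1, with a median of -0.29. Pgk1, a glycolytic kinase, was at 96.2 and 158 CPM, Bnip3 at 9.20 and 14.9 CPM and Adm, adrenomedullin, had a log2 ratio of -0.68 (-0.96 to -0.40). All 3 were more abundant over all kept barcodes, with Pgk1 at 127 and 201 CPM, Bnip3 at 38.1 and 52.9 CPM and Adm at 53.2 and 97.9 CPM. Their calls were lost in some alternatives, where the log2 ratio came up to -0.077 for Bnip3, -0.49 for Adm and -0.56 for Pgk1.

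Cell division genes were lower in 12 of 13 measured and higher in 0, with a median of -1.91 that ran from -2.68 to -1.83 over the alternatives. Birc5, a mitotic survivin, was at 6.93 CPM (5.90 to 8.10) in the library labelled knockout and 38.8 CPM (34.7 to 43.2) in the library labelled control. Pclaf, a PCNA-binding factor of S phase, was at 8.90 and 45.6 CPM, and Tpx2, a spindle protein, at 6.93 and 34.6 CPM. After thinning to 5000 counts, 3 or more of the 14 listed genes were detected in 43 of 1236 Timd4-positive cells of the library labelled knockout, 3.48% (2.53 to 4.66), and in 99 of 559 of the library labelled control, 17.7% (14.6 to 21.1). Among Timd4-zero Kupffer-gate cells the shares were 9.09% (1.92 to 24.3) of 33 and 31.6% (23.3 to 40.9) of 117. Timd4-positive cells with 3 or more of the genes were thus a minority in each library, yet most Timd4-positive cells held some counts of the list. The median of their summed division counts, scaled as in the rule, was 1.71 in the library labelled knockout and 2.48 in the library labelled control. Pcna, a member, weighs much in these sums. Without the 1% of cells with most counts of the gene, Pcna was at 136 and 193 CPM and Birc5 at 1.24 and 27.8 CPM. The list summed to 301 and 836 CPM over all Timd4-positive cells. The 1% of Timd4-positive cells with most division counts held 33.3% and 20.8% of them. Barcodes that joined 2 cells were not excluded from these shares.

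Immediate early and heat shock genes were higher in 13 of 14 measured and lower in 0, with a median of 1.14 (range over alternatives 1.07 to 1.22). Egr1 was at 564 CPM (554 to 574) in the library labelled knockout and 124 CPM (117 to 132) in the library labelled control, Fosb at 496 and 165 CPM, and Ier2 at 148 and 52.2 CPM. An Egr1 count was found in 65.1% of thinned Timd4-positive cells of the library labelled knockout and 24.0% of the library labelled control. Over all kept barcodes Egr1 was at 539 and 174 CPM and Fosb at 406 and 147 CPM, so these genes stood higher over the whole suspension of the library labelled knockout too.

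The 10 highest and 10 lowest ratios were taken among genes with at least 50 CPM in either library and 100 counts, outside the rule and the lists of other cell types. They also had to be no more abundant over all kept barcodes than in Timd4-positive cells, in the library where the gene was higher, which leaves out Mmp9, Cd36 and Cd9. The 10 highest included Cxcl13, Il1b, Egr1, Fosb, Ier2 and the heat shock gene Hspa1a. The highest of the 10 was Ptgis, prostacyclin synthase, at 116 CPM (112 to 121) in the library labelled knockout and 22.6 CPM (19.5 to 26.0) in the library labelled control, a log2 ratio of 2.36 (2.15 to 2.58). A Ptgis count was found in 39.0% and 6.62% of thinned Timd4-positive cells and in 1.21% and 0.44% of B-gate barcodes. The others were Fam43a, Pianp and Ppp1r15a, a stress-induced phosphatase subunit. The 10 lowest were Mcm5, Colec12, Lap3, Parvg, Kif23, Lig1, Tk1, Sh3pxd2b, Il15ra and Ifi211. Of these, Mcm5 and Lig1 replicate DNA, Tk1 supplies thymidine nucleotides for it and Kif23 acts in cytokinesis. Mcm5 had the lowest log2 ratio of the 10 at -1.97 (-2.18 to -1.75). Il15ra, the receptor chain that presents interleukin 15, was at 45.9 CPM in the library labelled knockout and 101 CPM in the library labelled control.

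Several of these differences had their counterpart in the Timd4-zero Kupffer-gate cells of the same libraries, 44 and 137 cells, and others did not. The difference between the classes was not tested. Fosb had a log2 ratio of 1.54 (1.27 to 1.81) in Timd4-zero cells beside 1.59 in Timd4-positive cells, Cd74 0.79 beside 0.79 and Vcam1 -0.93 beside -0.83. Cd36 had -1.39 (-1.76 to -1.04) beside -2.91. Marco had 0.19 (-0.27 to 0.62) beside -1.09, Cxcl13 0.18 (-0.49 to 0.81) beside 2.26 and Cd9 0.13 (-0.63 to 0.83) beside -2.65.

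Timd4-positive cells were next set against Timd4-zero cells that passed the same gates, within each library. This comparison lists genes that differed with Timd4 among barcodes of the Kupffer gate. The classes also differed in the Kupffer marker sum of the rule. Its median was 73.7 in Timd4-zero and 141.8 in Timd4-positive cells of the library labelled knockout. In the library labelled control it was 62.2 and 133.0. The part of a lower content of Kupffer RNA in general in these differences was not tested. The classes were cut by Timd4 counts of the same barcodes, and Timd4-zero cells were shallower, with medians of 7088.5 counts in the library labelled knockout and 8535 in the library labelled control. By edgeR's quasi-likelihood test on counts summed per library and class, with the library as a block, 250 of 8487 genes outside the rule were higher in Timd4-positive cells, a background of 2.95%, and 158 were lower, a background of 1.86%, at a Benjamini-Hochberg adjusted p under 0.05. Of these 408 genes, 402 moved the same way in both libraries. They were called from these same 2 libraries, which favours genes of equal direction, so this count is no separate support. The test has 2 libraries of unlike genotype as its replicates. Without the block edgeR made 0 calls, with 271 higher and 229 lower at an unadjusted p under 0.05. DESeq2 with the block called 74 genes higher and 60 lower.

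Kupffer identity genes rose with Timd4 in 13 of 19 and fell in 1, and DESeq2 called 11 and 1. Cd163 was at 1778 CPM in Timd4-positive and 596 CPM in Timd4-zero cells of the library labelled knockout, and at 1218 and 316 CPM in the library labelled control, a fitted log2 ratio of 1.80 (SE 0.10, edgeR adjusted p = 6.91e-23). Marco was at 357 and 134 CPM in the library labelled knockout and 758 and 118 CPM in the library labelled control. Its fitted log2 ratio was 2.24 (SE 0.16). Pcolce2 rose with a log2 ratio of 2.27 (SE 0.21), and Fcna, a ficolin, Folr2, Cdh5 and Vcam1 were among the others. Cd207, langerin, fell: it was at 65.3 and 682 CPM in the library labelled knockout and 81.5 and 312 CPM in the library labelled control, a log2 ratio of -2.63 (SE 0.17, edgeR adjusted p = 6.65e-21).

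Haem and iron genes rose in 9 of 16 and fell in 0, and DESeq2 called 4 higher and 0 lower. Hmox1 was at 1117 CPM in Timd4-positive and 530 CPM in Timd4-zero cells of the library labelled knockout, and at 1691 and 630 CPM in the library labelled control, a log2 ratio of 1.30 (SE 0.10). Lipid genes rose in 6 of 16 and fell in 0, with 4 and 0 called by DESeq2, led by the apolipoprotein gene Apoc1 with a log2 ratio of 2.32 (SE 0.12) and Scd1 with 1.19 (SE 0.18). Complement genes rose in 6 of 13 and fell in 2, and DESeq2 called 3 and 2. Cd55 had a log2 ratio of 2.27 (SE 0.21) and C2, a protease of the classical pathway, 2.24 (SE 0.22). Of 17 transcription factors, Nr1h3, Spic, which drives iron-recycling macrophages, and Klf2 rose and Id1 fell, and DESeq2 called Nr1h3 and Klf2. Nr1h3 was at 330 and 206 CPM in the library labelled knockout and 196 and 126 CPM in the library labelled control.

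Antigen presentation went the other way. Of 10 class II genes, 6 fell and 0 rose by edgeR, and 5 were lower and 0 higher by DESeq2. H2-Eb1, a class II beta chain, was at 967 CPM in Timd4-positive and 3355 CPM in Timd4-zero cells of the library labelled knockout, and at 644 and 1771 CPM in the library labelled control, a log2 ratio of -1.60 (SE 0.09, edgeR adjusted p = 1.57e-23). Ciita, the master regulator of class II genes, fell with a log2 ratio of -1.65 (SE 0.21). The monocyte genes Cx3cr1, a fractalkine receptor, Ccr2, the receptor for CCL2, and F13a1 also fell, of 4 tested, and DESeq2 called only Cx3cr1 of them. Cx3cr1 was at 4.01 and 90.7 CPM in the library labelled knockout and 11.7 and 117 CPM in the library labelled control. F13a1 in Timd4-zero cells came from 0 and 7 cells, and its direction turned without the library labelled control and with DESeq2. Ccr1, a chemokine receptor, fell with a log2 ratio of -3.85 (SE 0.33), from 25 and 121 counts in Timd4-zero cells.

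**Figure D4:**
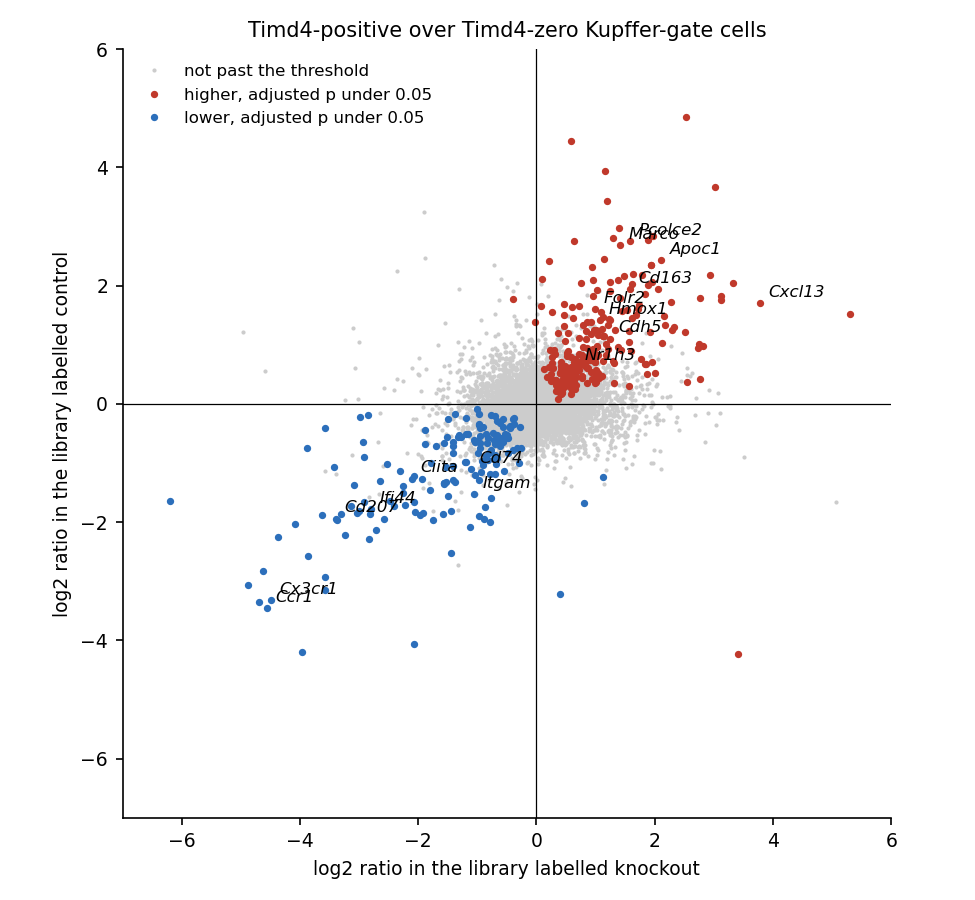
Log2 ratio of CPM in Timd4-positive over Timd4-zero Kupffer-gate cells, in the library labelled knockout (horizontal axis) and the library labelled control (vertical axis), 1 point per gene outside the rule; 1 gene lies beyond the axes. Of the 408 genes past the edgeR threshold, 402 lie in the quadrants of equal sign, with Cd163, Marco and Apoc1 at the upper right and Cd207, Cx3cr1 and Ccr1 at the lower left. The genes were called from these same 2 libraries.

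Cytokines split. Cxcl13, Cxcl10, Il10 and Ccl24 rose, and Cxcl2, Ccl3, Ccl4 and Ccl9 fell, of 17 tested. Cxcl13 was at 903 CPM in Timd4-positive and 65.7 CPM in Timd4-zero cells of the library labelled knockout, and at 189 and 58.1 CPM in the library labelled control. Its log2 ratio was 2.61 (SE 0.19), and it was not called by DESeq2. Of Ccl9 counts in Timd4-zero cells of the library labelled knockout, 76.5% came from 1 cell. Ifi44 was the 1 of 15 interferon-stimulated genes called and fell, with a log2 ratio of -2.19 (SE 0.18). Cell division genes fell in 2 of 13, Mcm5 and Mcm6, neither of which DESeq2 called. Of 15 immediate early and heat shock genes and of 14 hypoxia and glycolysis genes, 0 were called in either direction by edgeR or by DESeq2. At an unadjusted edgeR p under 0.05 there were 2 and 3 of them.

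Other lists held calls that rest on few cells. Fn1, fibronectin, was called lower, yet 98.5% of its 269 counts in Timd4-zero cells of the library labelled knockout came from 1 cell, and its direction turned with barcodes of 4000 to 20000 counts. Lyve1 was called lower, with 48.8% of 254 counts in 1 Timd4-zero cell of the library labelled control, and its direction turned without that library. The 4 haemoglobin genes and 3 neutrophil genes tested were called higher, with most of their counts in 1% of Timd4-positive cells in the library labelled knockout. DESeq2 called 3 haemoglobin genes and 0 neutrophil genes. After thinning, Ngp turned to -2.86 and S100a8 to -1.66 on the log2 scale, and Hbb-bt turned to -0.80 and Hbb-bs to -0.56 with 0 or 1 Timd4 count as the other class. Mmp13, a collagenase, was called lower at a log2 ratio of -3.26 (SE 0.39), with 7 and 44 Timd4-zero cells holding a count.

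Some genes also differed with the level of Timd4 inside the Timd4-positive class, and most of those followed did so little. Spearman's rho with Timd4 per 10000 counts over the 1277 and 622 cells was 0.34 in the library labelled knockout and 0.24 in the library labelled control for Folr2, 0.24 and 0.16 for Cdh5, 0.090 and 0.023 for Cd163 and 0.021 and -0.079 for Cd74. These are descriptions over cells that share a library but not a depth. From the 10th to the 90th percentile, total counts ran from 8403 to 27045 in the library labelled knockout. In the library labelled control they ran from 4992 to 22592. Timd4-positive cells were split within each library at the median of Timd4 per 10000 counts. In the library labelled knockout, Folr2 was at 641 CPM in Timd4-zero cells, 823 CPM with 1 Timd4 count, 1081 CPM below the median and 1453 CPM above it. In the library labelled control the same classes had 248, 496, 647 and 871 CPM. Marco followed in the library labelled control with 118, 400, 565 and 974 CPM, and stood at 134, 124, 297 and 410 CPM in the library labelled knockout. Cd207 was highest in Timd4-zero cells, at 682, 165, 58.2 and 71.6 CPM in the library labelled knockout and 312, 123, 95.2 and 66.3 CPM in the library labelled control. Cd74 was at 3006, 1932, 1602 and 1184 CPM in the library labelled control. In the library labelled knockout it was at 5211, 2369, 2497 and 2362 CPM, and so hardly differed between Timd4-positive cells below and above the median.

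**Figure D5:**
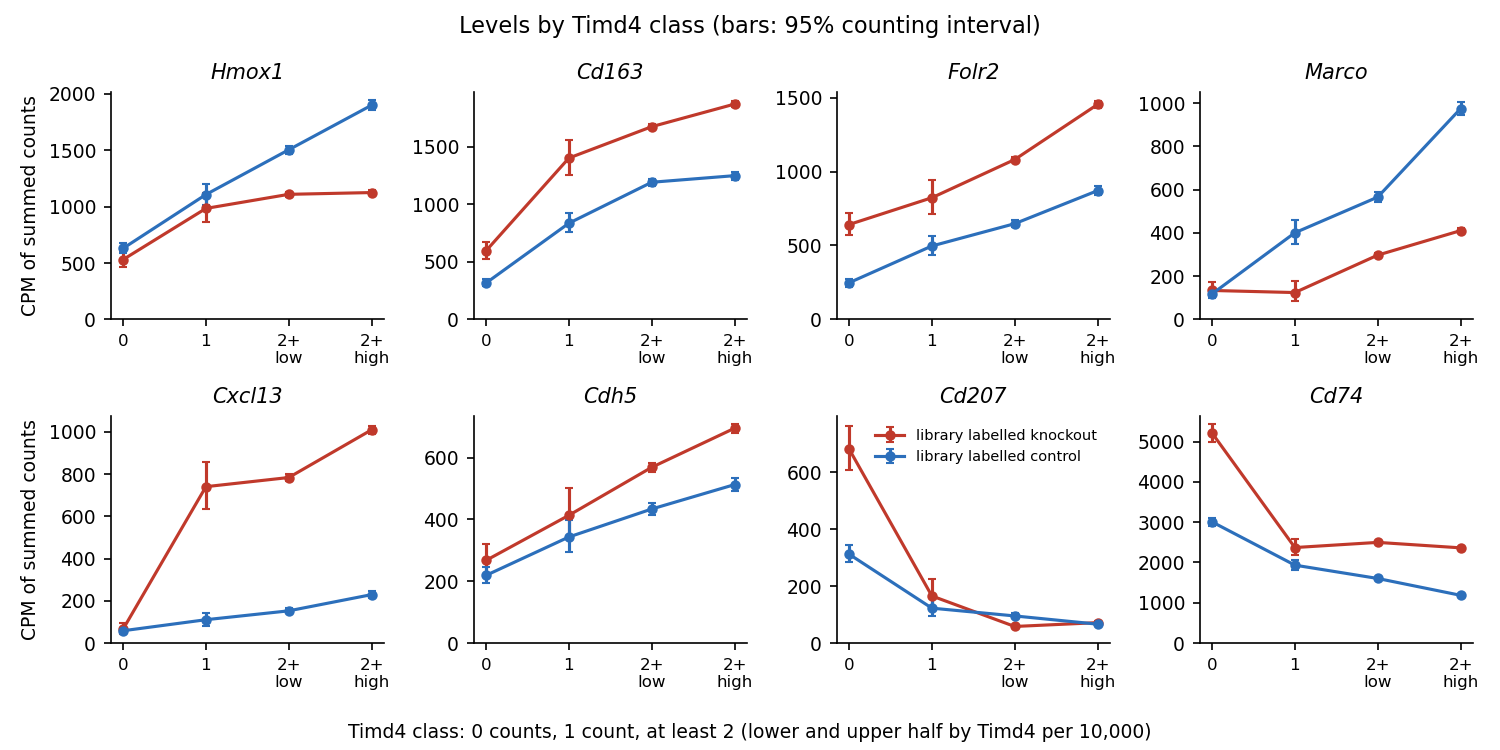
CPM of summed counts (vertical axes, each from 0) of 8 genes in cells with 0 Timd4 counts, 1 count, and Timd4-positive cells below and above their median Timd4, by library, with 95% counting intervals. Folr2 and Cdh5 climb over the classes in both libraries, Cxcl13 climbs to 1009 CPM in the library labelled knockout and 229 CPM in the library labelled control, and Cd207 is highest at 0 Timd4 counts in both.

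Cells within the Timd4-positive class also differed among themselves. Clec4f, which the rule reads, ran from 33.0 counts per 10000 at the 10th percentile to 63.3 at the 90th in the library labelled knockout. In the library labelled control it ran from 25.2 to 58.8, and both spreads describe the choice. Cd163 ran from 6.36 to 29.6 and from 1.76 to 23.5. Marco was found in a subset: after thinning it had a count in 39.2% of cells of the library labelled knockout and 63.3% of the library labelled control, against 1.21% and 3.08% of B-gate barcodes. Hmox1 had a long upper tail, with a median of 4.90 and a 90th percentile of 32.5 in the library labelled knockout, against 9.39 and 45.1 in the library labelled control. Cdh5 had medians of 5.95 and 4.35 counts per 10000.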

How the data were processed

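Per the labels' protocols, cells of 1 mouse of each genotype went through BD Rhapsody whole-transcriptome capture. What the authors deposited are raw counts, whole numbers for each gene symbol in each barcode. The submitters' processing notes name GRCm39. How reads were aligned, molecular identifiers collapsed and cells called is not given in the sources used here. No coordinates are printed, and 1 gene of the lists is not reported here. Barcodes needed at least 300 genes and at most 25% mitochondrial counts, which kept 8799 in the library labelled knockout and 7917 in the library labelled control. No barcode held fewer than 2848 and 3311 counts. Scrublet in Scanpy 1.11.5 marked 1 barcode in each library (0.0114% and 0.0126%), so it had not worked. Doublets were kept, and the top 5% of scores were left out as an alternative.

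Counts were summed per library. CPM have exact Poisson intervals, ratios exact conditional and shares exact Clopper-Pearson intervals at 95%, counting error only. Ratios against 0 counts used a floor of 3 counts per library. Timd4-positive and Timd4-zero sums were compared with edgeR 4.0.16 (TMM, library as block because both classes come from the same animal, 1 residual degree of freedom), with DESeq2 1.42.0 as an alternative. Each SE of a fitted log2 ratio was derived from the edgeR test, as the absolute log2 ratio divided by the square root of its F statistic. Thinned shares are single random draws. Both scripts were tested on simulated counts. The members and gene lists were chosen with earlier results of these data known. Named genes follow a rule: per list up to 3 members past 1.5-fold with the largest ratio (otherwise the 2 of highest CPM), up to 2 past the edgeR threshold, and over all genes the 10 highest and 10 lowest that reached 50 CPM in either library and 100 counts; other called members are named without that rule. In the list over all genes, genes more abundant over all kept barcodes than in the cells were left out.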

Additional observations from a re-analysis of the deposited data

Results flagged for a closer look

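For 5 of the named genes the ratio between libraries had opposite signs in Timd4-positive and in Timd4-zero Kupffer-gate cells, reached 1.5-fold in both and had a counting interval that left out 0 in both. Other genes of opposite sign did not meet all 3 conditions. None of these differences between classes was tested. Ccr2 had a log2 ratio of 1.07 in Timd4-zero cells, from 90 and 132 counts, and -1.29 in Timd4-positive cells. Kdr, a gene the rule reads, had -1.55 from 5 and 45 counts, beside 0.70. Ighm had -4.17 from 2 and 111 counts, beside 2.55, and Igkc had -2.49 from 14 and 243 counts, beside 1.92. Chil3 had 0 counts in Timd4-zero cells of the library labelled knockout and 15 in the library labelled control, a log2 ratio of -0.70 against a floor of 3 counts, beside 0.79. In Timd4-positive cells of the library labelled knockout the 1% of cells with most counts held 94.9% of Ighm, 92.5% of Igkc, 89.9% of Chil3 and 72.3% of Ccr2 counts.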

How the results depend on the processing

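The limits are 1 library per genotype, unlike depth, gates that read expression, and doublets that could not be called. Of single genes named between libraries, 943 values under alternatives were close to the reported one, 226 moved and 7 reversed.

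The gap between libraries in Timd4-positive cells as a share of kept barcodes, 6.66 percentage points, was 3.92 with an endothelial sum below 5, 8.6 with at most 10% mitochondrial counts, 5.08 with barcodes of 4000 to 20000 counts and 8.14 after thinning. As a share of Kupffer-gate barcodes, 18.9 points, it was 13.4 with Timd4 at least 1, 23.1 with at least 3 and 23.9 after thinning. Genes higher, 296, numbered 473 after thinning, 1650 without a filter and 120 with a mean of at least 50 CPM. Genes lower, 445, numbered 4230 and 86 under the last 2. Genes higher with Timd4, 250, numbered 95 after thinning, 146 with Timd4 of 0 or 1 as the other class, 0 without the library block and 74 by DESeq2. Genes lower, 158, numbered 93 after thinning, 0 without the block and 60 by DESeq2. The classes of a library come from 1 animal, which is the pairing.

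List medians moved as follows. With TMM they were 0.63 for the markers of the cells, 0.15 for identity, 0.28 for transcription factors, 0.34 for resident macrophage genes, -0.082 for scavenger receptors, 0.041 for haem and iron, -0.032 for lipid, 0.62 for class II, 0.061 for CCN2 receptors, -0.44 for erythroid and 0.25 for the 18 genes followed over cells; median-of-ratios factors gave -0.031 for lipid and the same values for the others. With barcodes above 2 times the median count left out they were 0.49 for markers, 0.33 for resident macrophage genes, 0.73 for endothelial, 1.88 for B-cell, -0.35 for erythroid genes and 0.12 for the 18 genes. With 4000 to 20000 counts they were 0.42 for markers, 0.68 for class II, 0.21 for cytokines, -2.68 for division, -1.93 for hepatocyte, -0.54 for monocyte, 3.45 for neutrophil, -0.31 for erythroid and, reversed, -0.65 for B-cell genes. After thinning they were 0.41 for markers, -0.023 for lipid, 0.71 for class II, 0.60 for growth factors, -0.24 for monocyte, 3.57 for neutrophil and -1.70 for erythroid genes. With means of per-cell CPM they were 0.45, 1.48 and -0.79 for markers, B-cell and erythroid genes. Without a filter they were 0.081 for transcription factors, -0.10 for resident macrophage genes, -0.23 for lipid, 0.14 for cytokines, -0.32 for growth factors, -1.78 for hepatocyte, -0.82 for monocyte and, reversed, -0.997 for B-cell genes. With at least 50 CPM they were 0.42, -0.22, -0.0053, -0.30, 0.64, -0.072, -0.44 and 0.12 for resident macrophage, scavenger, lipid, scar, cytokine, growth factor, interferon and CCN2 receptor genes. Without the top doublet scores they were 0.38, 0.64, -2.19, -1.74, -0.63, 0.80 and 2.94 for resident macrophage, class II, division, hepatocyte, monocyte, neutrophil and B-cell genes. With at most 10% mitochondrial counts they were 0.39, 1.92 and -0.68 for resident macrophage, B-cell and erythroid genes. With an endothelial sum below 5 they were 0.56, -2.46 and 0.25 for cytokine, division and endothelial genes. With Timd4 at least 3 they were 0.56 and -0.76 for growth factors and erythroid genes, and with at least 1 they were 1.81 and -0.23 for B-cell and erythroid genes.

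Single genes reversed as follows, and the cause was not tested. Without the 1% of cells with most counts of the gene, the log2 ratio between libraries was -0.30 for Chil3, -0.85 for Jchain, -1.05 for Ighm and -1.21 for Igkc. Ighm was at -0.65 and Igkc at -0.15 with 4000 to 20000 counts, and Chil3 at -0.39 without the top doublet scores. The restriction to 4000 to 20000 counts and the removal of top cells were chosen after seeing the data. Between Timd4 classes, F13a1 turned to 0.49 with DESeq2 and 0.39 without the library labelled control, against -3.21 without the library labelled knockout, Fn1 to 1.88 with 4000 to 20000 counts, and Lyve1 to 0.41 without deep barcodes, 0.48 with 4000 to 20000 counts and 1.13 without the library labelled control, against -1.23 without the library labelled knockout. Ngp turned to -2.86 and S100a8 to -1.66 after thinning, and Hbb-bt to -0.80 and Hbb-bs to -0.56 with 0 or 1 Timd4 count as the other class.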
